A study of Drosophila melanogaster with 6 samples.

Results

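The library of larvae expressing newt gene candidate 3 (C3) was set against the library of control larvae, gene by gene, for genes other than those of the testis. Of 16196 Drosophila melanogaster genes in the deposited tables, 11599 were measured, meaning a mean of at least 1 count per 1000000 (CPM) over the 6 libraries of the series, and 1457 of these were set aside as testis RNA. The remaining 10142 measured genes are the subject and are called somatic for short, although some testis genes stayed among them, as given below, and another 4399 somatic genes fell below that level. C3 larvae carried the genotype written Tublin Gal4; UAS-C3, in which the ubiquitous Gal4 driver switches on a gene of the newt Notophthalmus viridescens that was placed in the fly genome with phiC31 integrase and a pUAST-attB vector. Larvae of C1, C2, C5 and C4 carried the same driver with another newt gene each. Control larvae carried Tublin Gal4/S-T, that is, the driver without a newt gene, and their library is titled as wild type. Whole 3rd instar larvae were taken on the 4th day after egg laying, and ribosomal RNA was depleted before sequencing.

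Each genotype was 1 strain with 1 library, and the number of larvae in a library is not given in the sources used here. The 2 libraries held 76151038 counts (C3) and 84269592 counts (Control), and a difference between them has no replicate check and no p-value. Intervals and floors cover counting error only. The S-T chromosome is in the control alone and the UAS insert in C3 alone. Effects of the newt gene, the insert, the S-T chromosome, the strain, the share of males and the exact stage thus cannot be told apart. The newt transcript was not analysed here, and the label of C3 therefore has no check in these values. In whole larvae, fewer cells of a type and less RNA per cell cannot be told apart either.

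The last day of larval life in Drosophila is run by the steroid hormone ecdysone. Pulses of the hormone end feeding, switch on the glue genes of the salivary glands, and then trigger glue release and puparium formation, when the animal fixes itself to a surface and its larval cuticle hardens and darkens. Hardening uses dopamine derivatives made in the epidermis. The same period sees the midgut, fat body and larval muscles prepare for their later breakdown, and immune genes are expressed in the gut and fat body.

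A gene counted as higher or lower in C3 when its scaled level differed from the control at least 2-fold and the exact 95% interval of the ratio excluded 1. Of the 10142 somatic genes, 698 (6.88%) were higher and 1080 (10.6%) lower in C3, and 8364 were neither. Either difference was found in 17.5%. Over all 11599 measured genes, those of the testis included, 698 (6.02%) were higher and 2533 (21.8%) lower, or 27.9% in either direction. Among the somatic genes the median log2 ratio was 0.07, with quartiles at -0.30 and 0.38. Differences of at least 8-fold were found in 67 higher and 318 lower genes. C3 was also set beside all other libraries. It lay at least 2-fold above each of the other 5 in 109 genes (1.07%) and at least 2-fold below each of them in 358 genes (3.53%).

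RNA of the testis moved with the contrast. Of the 39 male germline genes listed, 36 were measured, 35 of them were lower in C3, and 12 of the 39 had 0 counts in C3 against none in the control. Their summed level was 36.4 CPM in C3 and 3145 CPM in the control. The dosage compensation RNAs roX1 and roX2, markers of the male soma, were both lower in C3. Summed, they were at 14.5 CPM in C3, 11.9 to 16.2 CPM in C1, C2 and C5, 340 CPM in C4 and 215 CPM in the control. The genes set aside, recognised by their near absence from C1, C2 and C5, held 0.0210% of the C3 counts, 7.21% of the C4 counts and 3.34% of the control counts. None of them was higher in C3. The part that testis RNA had in the somatic differences was not tested. C1, C2 and C5, which carry other newt genes, also lacked it, and their levels are given beside many of the genes below. Genes of like pattern remained among those called somatic. Of the 1080 lower genes, 442 were also at least 2-fold below the control in each of C1, C2 and C5, which share that control library, and 867 were left as lower when genes at up to 20% of the control in those 3 libraries were set aside. The run of adjacent lower genes ord, tbrd-3, CG3502 and CG9863 on 2R includes such genes, with tbrd-3 at 0.276 CPM in C3, at most 0.599 CPM in C1, C2 and C5, 9.67 CPM in C4 and 7.29 CPM in the control. Another was CG6083, at 0.132 CPM in C3, 0.133, 1.08 and 0.147 CPM in C1, C2 and C5, 30.1 CPM in C4 and 17.0 CPM in the control.

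**Figure D1:**
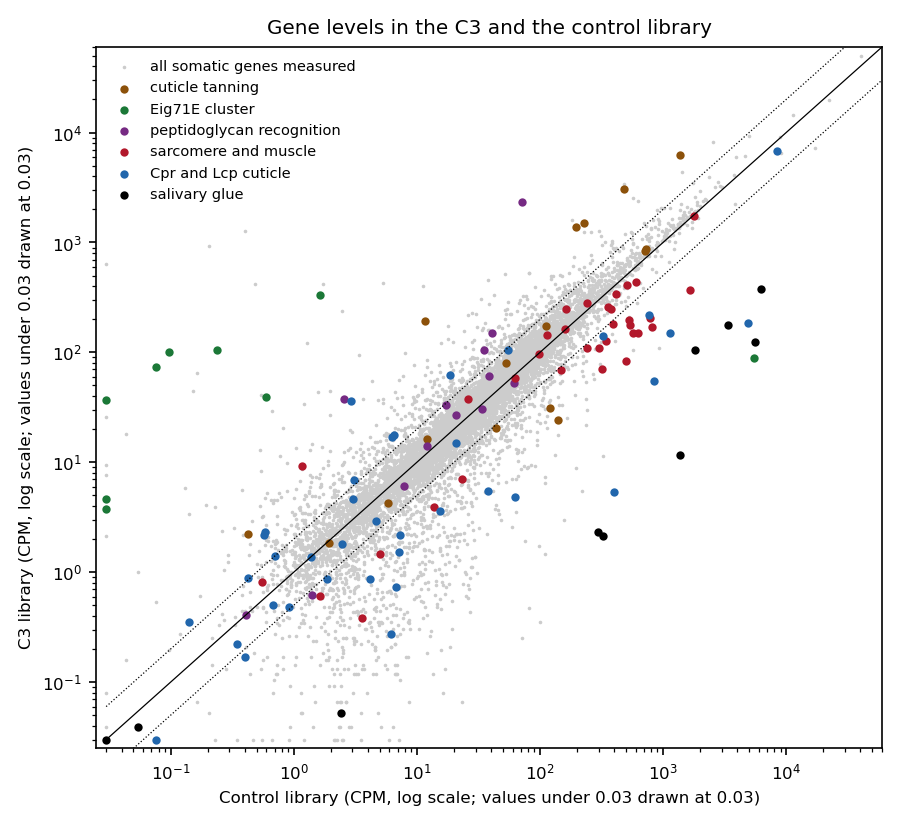
Level of each of the 10142 somatic genes in the C3 library (vertical) and the control library (horizontal), in CPM on log axes, with 1 point per gene, the solid line at equal levels and the dotted lines at 2-fold. Tanning genes such as ple (6244 CPM in C3, 1384 CPM in the control) and 8 Eig71E genes lie above the lines, while 8 glue genes, Lcp1, Lcp2, Lcp3 and Lcp4 and 19 muscle genes lie below.

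Some genes of cuticle tanning had far more RNA in C3 larvae. Of the genes of this pathway 6 were higher, among them the entry enzyme of dopamine synthesis and the enzymes behind its beta-alanine conjugate, and 3 yellow-family genes were lower. The tanning list had 16 measured genes, of which 37.5% were higher and 18.8% lower, and their summed level was 14443 CPM in C3 and 4233 CPM in the control. The median log2 ratio was 0.51.

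The pathway begins with ple, tyrosine hydroxylase, which stood at 6244 CPM in C3, 3581 CPM in C1, 24.2 CPM in C2, 647 CPM in C5, 811 CPM in C4 and 1384 CPM in the control. C3 was the highest of the 6 but within 2-fold of C1. Ddc, the next enzyme on the way to dopamine, was at 842 CPM in C3 and 708 CPM in the control, and Pu, which makes the cofactor of tyrosine hydroxylase, at 865 CPM in C3 and 725 CPM in the control. Neither of these passed the rule. The black gene b, an aspartate decarboxylase that makes beta-alanine, stood at 1371 CPM in C3, 353 CPM in C1, 51.7 CPM in C2, 117 CPM in C5, 192 CPM in C4 and 198 CPM in the control (log2 ratio 2.79). Ebony (e), which joins beta-alanine to dopamine, stood at 3073 CPM in C3, 1016 CPM in C1, 1.74 CPM in C2, 16.9 CPM in C5, 237 CPM in C4 and 486 CPM in the control (log2 ratio 2.66). For these 2 genes C3 lay above all other libraries by the 2-fold rule, whereas C2 was the lowest.

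The dopamine acetylase gene speck was at 193 CPM in C3 and 11.8 CPM in the control, with 475 CPM in C4 and 14.8 to 22.1 CPM in the other 3 libraries. High speck RNA was therefore shared with C4. In the yellow family, whose members are known for melanin formation, yellow-c was at 1502 CPM in C3, 984 CPM in C1 and 229 CPM in the control. The founding member y was at 2.25 CPM in C3 and 0.424 CPM in the control, and the control was the lowest of the 6 libraries. On the lower side, yellow-d2 was at 24.4 CPM in C3 and 140 CPM in the control, yellow-e at 31.2 CPM in C3 and 122 CPM in the control, and yellow-b at 20.6 CPM in C3 and 43.9 CPM in the control. In all 3, C3 lay below every other library. Neither straw (stw), the laccase that oxidises dopamine derivatives, nor tan (t), which reverses the Ebony reaction, passed the rule.

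Structural cuticle genes split. Of 37 measured Cpr and Lcp cuticle protein genes, 16 (43.2%) were lower and 9 (24.3%) higher in C3, and 12 lay below all other libraries. The larval cuticle genes Lcp1, Lcp2, Lcp3 and Lcp4, which are neighbours on chromosome 2R, were all lower and are 1 of 14 runs of at least 4 adjacent measured somatic genes that differed in the same direction. Lcp1 stood at 184 CPM in C3, 2375 CPM in C1, 17176 CPM in C2, 6495 CPM in C5, 4902 CPM in C4 and 4888 CPM in the control. Lcp3 was at 5.41 CPM in C3, against 403 CPM in the control, a log2 ratio of -6.22 (95% interval -6.36 to -6.08). The other 4 libraries lay between 60.8 CPM (C1) and 2219.8 CPM (C2), so that C3 was lowest by a wide margin.

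Larval cuticle genes elsewhere in the genome went the same way, with Cpr67B at 5.52 CPM in C3 and 37.8 CPM in the control and Lcp9 at 0.737 CPM in C3 and 6.74 CPM in the control. Of the genes higher in C3, Cpr47Ee was at 35.9 CPM in C3, 1.59 to 10.6 CPM in C1, C2, C5 and C4, and 2.93 CPM in the control. Together with Cpr97Ea (16.9 CPM in C3, 6.26 CPM in the control) it lay above every other library. Cpr49Ag, at 61.7 CPM in C3 and 18.7 CPM in the control, was highest in C3 without reaching 2-fold over C1. Among the higher genes, Cpr11A fell short of 2-fold with plain CPM and with TMM on somatic genes.

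Genes for handling chitin, the polysaccharide of cuticle and gut lining, also differed in both directions, with 5 of 34 higher (14.7%) and 6 lower (17.6%). The chitinase gene Cht4 was at 8.41 CPM in C3, 35.8 CPM in C4 and 0.543 CPM in the control. Of the obstructor family of chitin-binding proteins, obst-A was higher, at 128 CPM in C3 and 48.6 CPM in the control. Another 4 were lower, among them obst-G at 0.0658 CPM in C3 and 2.65 CPM in the control, and obst-F at 0.487 CPM in C3 and 4.64 CPM in the control.

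Muscle RNA was lower in C3. The list held 34 measured genes of the sarcomere and muscle, 19 lower (55.9%) and 1 higher (2.94%). Its median log2 ratio was -1.12, and 17 genes lay below all 5 other libraries. The lower genes included myosins, actins, troponins and giant elastic proteins of the contractile filaments, and 14 genes of the list passed in neither direction.

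Mhc, which encodes muscle myosin heavy chain, was at 83.8 CPM in C3, 386 CPM in C1, 2641 CPM in C2, 411 CPM in C5, 284 CPM in C4 and 496 CPM in the control. The log2 ratio to the control was -2.57 (95% interval -2.60 to -2.53), and C3 lay below the next lowest library, C4, by a log2 ratio of -1.76. Mlc2, a myosin light chain, was at 169 CPM in C3 and 815 CPM in the control, and the larval muscle actin Act57B at 367 CPM in C3 and 1666 CPM in the control. Troponin genes went the same way, with up (troponin T) at 208 CPM in C3 and 790 CPM in the control, and TpnC47D at 0.382 CPM in C3 and 3.58 CPM in the control. In each of these genes C3 was the lowest of the 6 libraries. Prm, the paramyosin of thick filaments, was at 152 CPM in C3 and 623 CPM in the control. The giant elastic protein genes sls (110 CPM in C3, 302 CPM in the control) and bt (126 CPM in C3, 345 CPM in the control) were lower as well.

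The only higher gene of the list was Act88F, the actin of adult indirect flight muscle, at 9.28 CPM in C3, 6.09 CPM in C1, 0.569 to 1.64 CPM in C2, C5 and C4, and 1.16 CPM in the control. Mef2, the transcription factor of muscle differentiation, was at 145 CPM in C3 and 114 CPM in the control, and the attachment integrin gene if at 58.8 CPM in C3 and 62.7 CPM in the control. SERCA, the calcium pump of the sarcoplasmic reticulum, was at 258 CPM in C3 and 360 CPM in the control. These 3 did not pass the rule, nor did the troponin C gene TpnC73F (414 CPM in C3, 509 CPM in the control).

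**Figure D2:**
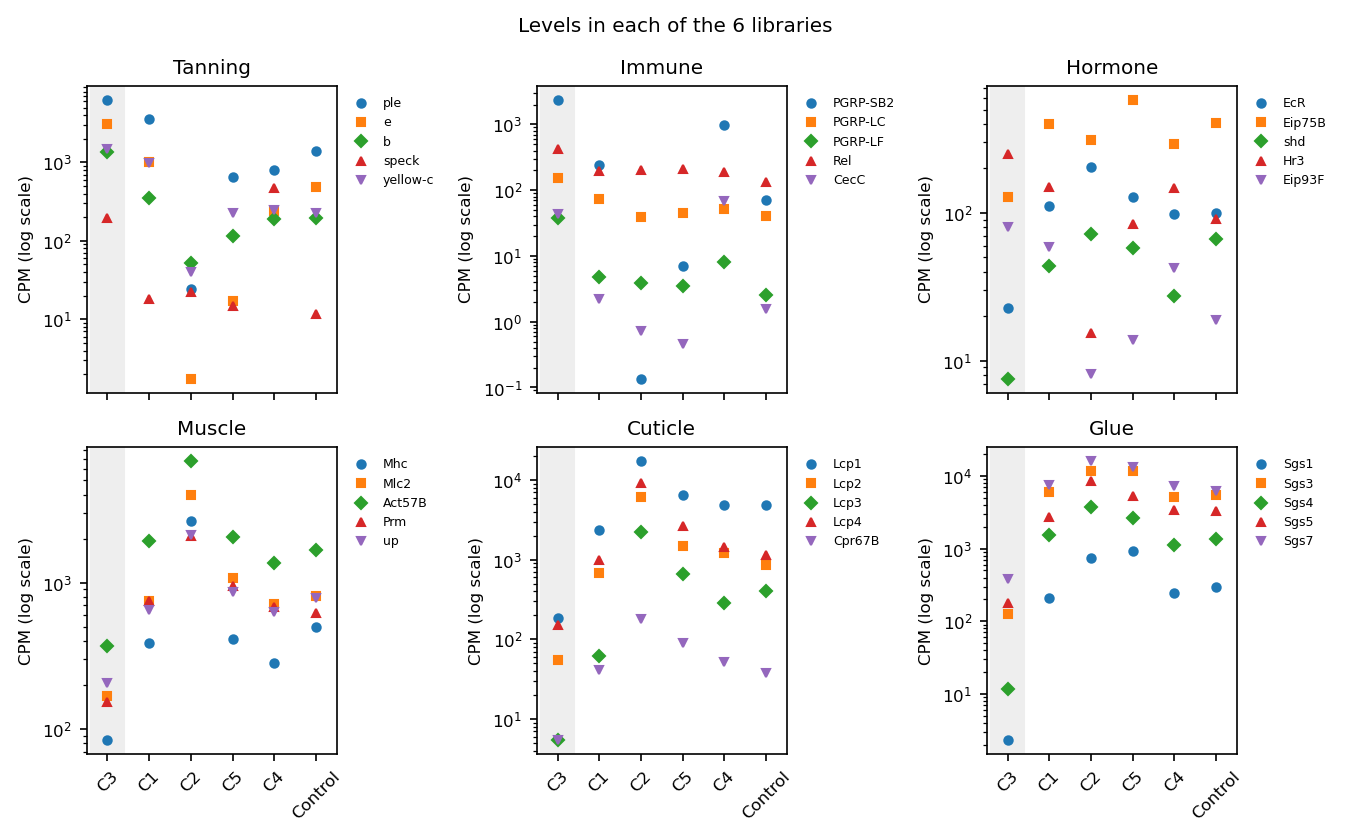
Level of 30 genes in 6 groups, in CPM on log axes, with the 6 libraries along the horizontal axis (C3 shaded, Control at the right) and 1 marker per gene and library. The 5 muscle genes, 5 cuticle genes and 5 glue genes are lowest in C3, and e, b, PGRP-SB2, PGRP-LC, PGRP-LF and Rel are highest there.

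Glue RNA of the salivary glands was much lower in C3. Of 10 glue genes 8 (80.0%) were lower in C3, each below all 5 other libraries, and their summed level was 802 CPM in C3 and 19015 CPM in the control. Sgs3 stood at 125 CPM in C3, 5958 CPM in C1, 11776 CPM in C2, 11665 CPM in C5, 5157 CPM in C4 and 5560 CPM in the control. The 2 remaining glue genes, ng1 and ng2, had at most 0.0543 CPM in either library. In the Eig71E cluster, salivary gland products under ecdysone control, 8 of 9 were higher (median log2 ratio 7.68). Eig71Ee was lower, at 88.6 CPM in C3, 1595 to 3999 CPM in C1, C2, C5 and C4, and 5473 CPM in the control. The cluster's summed level was 788 CPM in C3 and 5476 CPM in the control. Of the higher genes, Eig71Eb, Eig71Ec, Eig71Ed and Eig71Ef had at most 0.599 CPM in C1, C2, C5 and the control. They were measured only through C3 and C4, so the share higher and the median follow in part from the filter. A run of 5 neighbours in that cluster, Eig71Ef, Eig71Eg, Eig71Eh, Eig71Ei and CG43082, spans 3L:15656655-15662279 in the dm6 build, with Eig71Ef at 36.7 CPM in C3, 178 CPM in C4 and 0.0217 CPM (2 counts) in the control.

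Salivary gland regulators and enzymes differed in several members, with 3 of 8 lower (37.5%) and 1 higher (12.5%). Expression of sage, a transcription factor of the salivary gland, was 20.7 CPM in C3, 50.9 to 118 CPM in C1, C2, C5 and C4, and 70.2 CPM in the control. Its partner fkh was at 60.9 CPM in C3 and 55.4 CPM in the control and did not pass the rule. PH4alphaSG1 and PH4alphaSG2, prolyl hydroxylase genes of the gland, were lower. PH4alphaSG1 had 0 counts in C3 and 0.923 CPM in the control, and was at least 23.4-fold lower against a floor of 3 counts, and PH4alphaSG2 was at 0.118 CPM in C3 and 3.12 CPM in the control. CrebA, a general activator of secretory genes, was higher (164 CPM in C3, 74.0 CPM in the control). Of 27 endoplasmic reticulum and secretory pathway genes, which other tissues express too, 25 were neither higher nor lower, and the stress kinase gene PEK (140 CPM in C3, 56.4 CPM in the control) and the disulfide oxidase gene Ero1L (89.0 CPM in C3, 31.0 CPM in the control) were higher.

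**Figure D3:**
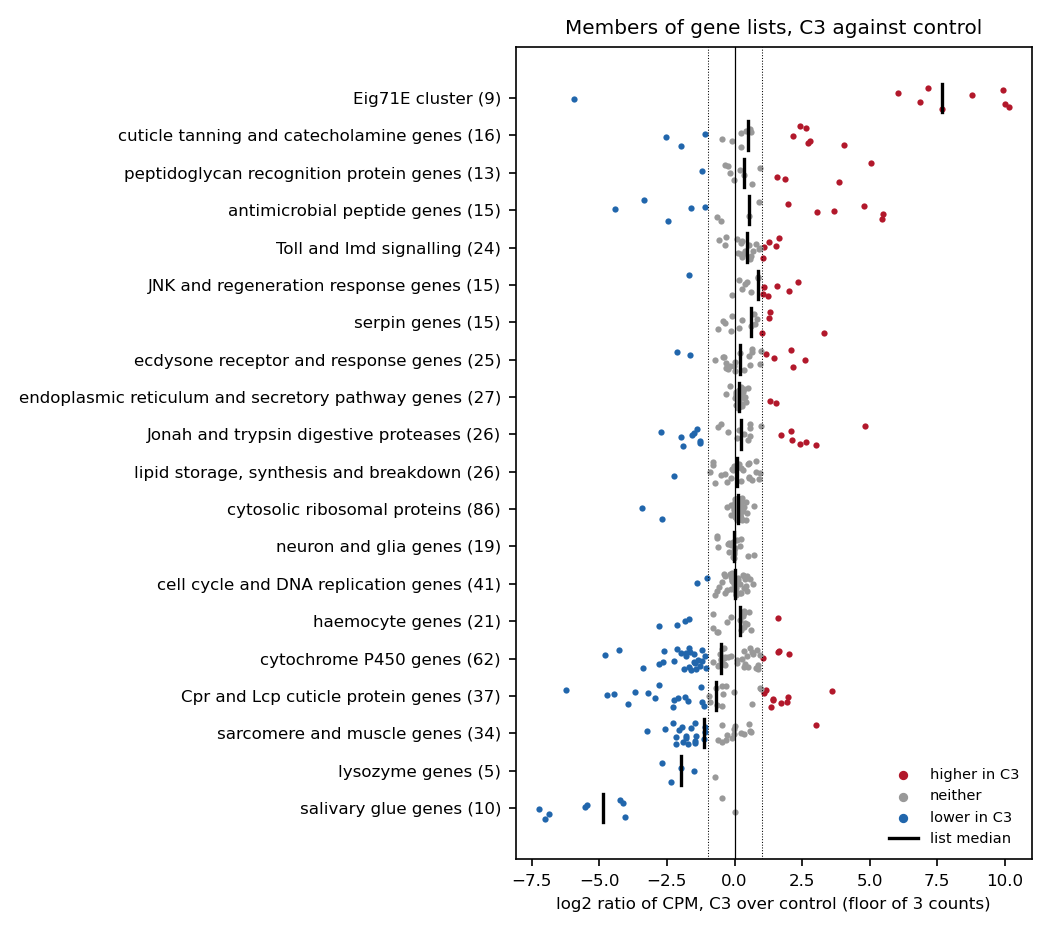
The log2 ratio of C3 over the control for every measured member of 20 gene lists (number measured in brackets), 1 point per gene, coloured by the 2-fold rule, with the list median as a black bar. Glue, lysozyme and muscle medians lie at -4.86, -2.0 and -1.12, the Eig71E median at 7.68, and the medians of the neuron, cell cycle, lipid and ribosome lists at -0.03, 0.03, 0.08 and 0.11. Plain CPM shifts all ratios by -0.13, which takes the last 3 of these medians below 0.

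Genes of ecdysone action differed in a few members. Of 25 measured receptor and response genes, 5 (20%) were higher, 2 (8%) lower and 18 neither. The receptor gene EcR itself stood at 22.6 CPM in C3, 111 CPM in C1, 204 CPM in C2, 129 CPM in C5, 97.6 CPM in C4 and 99.6 CPM in the control (log2 ratio -2.14, 95% interval -2.21 to -2.07). Its level in C3 was thus below that of every other library. The gene of its heterodimer partner, usp, was at 81.1 CPM in C3 and 51.5 CPM in the control, within 2-fold. The early response gene Eip75B, a nuclear receptor, was at 128 CPM in C3, 291 to 581 CPM in C1, C2, C5 and C4, and 404 CPM in the control.

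Other early genes were near the control when summed over their transcripts, with br at 1366 CPM in C3 and 1714 CPM in the control and Eip74EF at 401 CPM in C3 and 481 CPM in the control. Some later-acting regulators were higher. Hr3, the nuclear receptor that prepares the next response, was at 250 CPM in C3 and 90.9 CPM in the control. Eip93F, a regulator of larval tissue death and adult fate, was at 79.9 CPM in C3, 59.0 CPM in C1, 8.11 CPM in C2, 13.9 CPM in C5, 42.4 CPM in C4 and 18.7 CPM in the control. Hr38, MsrA and ImpL1 completed the higher genes, with ImpL1 at 5.44 CPM in C3, 12.2 CPM in C4 and 0.890 CPM in the control. ftz-f1, the competence factor of prepupae, was low in both, at 2.40 CPM in C3 and 3.20 CPM in the control.

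Of 17 genes that make, import and remove the hormone, 4 were lower (23.5%), 1 was higher (5.88%) and 12 neither. The synthesis enzymes of the prothoracic gland on this list did not pass the rule. Among them, phtm was at 43.1 CPM in C3 and 41.8 CPM in the control, and sad at 47.9 CPM in C3 and 32.2 CPM in the control. The enzyme of the last step in peripheral tissues, shd, which turns ecdysone into its active form, was at 7.52 CPM in C3, 27.6 to 71.6 CPM in C1, C2, C5 and C4, and 66.8 CPM in the control. The inactivating enzymes Cyp18a1 (2.12 CPM in C3, 13.2 CPM in the control) and Eo (3.29 CPM in C3, 16.6 CPM in the control) were lower too. For shd, Cyp18a1 and Eo, C3 lay below every other library. Ptth, the brain hormone that stimulates the gland, was at 1.12 CPM in C3 and 2.42 CPM in the control. Oatp74D, the ecdysone importer, was at 148 CPM in C3 and 71.3 CPM in the control. It fell short of 2-fold with plain CPM and with TMM on somatic genes. The juvenile hormone response gene Kr-h1 (222 CPM in C3, 102 CPM in the control) fell short with plain CPM only.

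Estimated transcript levels showed unequal differences within genes. Of 6 EcR transcripts 4 were lower and 2 neither. The EcR transcript that was most abundant in the control was at 3.91 CPM in C3 and 49.7 CPM in the control, and held 17.3% of the gene's counts in C3 and 49.9% in the control. The next was at 1.58 CPM in C3 and 18.1 CPM in the control, and the third by level in the control was at 5.40 CPM in C3 and 13.7 CPM in the control. The EcR transcripts other than the leading pair had log2 ratios between -1.34 and 0.75, nearer to the control. Of 7 Eip75B transcripts 6 were lower. The leading pair stood at 30.5 and 34.3 CPM in C3, against 162 and 127 CPM in the control, and the remaining 1 was level at 38.3 CPM in C3 and 38.2 CPM in the control. For Eip74EF, 1 transcript was at 14.8 CPM in C3 and 69.5 CPM in the control, and 3 with identical estimates were at 116 CPM in C3 and 130 CPM in the control. Of 14 br transcripts 8 were lower, and these 8 together held 8.63% of the gene's counts in C3 and 16.6% in the control. The most abundant br transcript was at 640 CPM in C3 and 857 CPM in the control and did not pass the rule. Such estimates depend on how the authors' counting shared reads among overlapping transcripts.

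**Figure D4:**
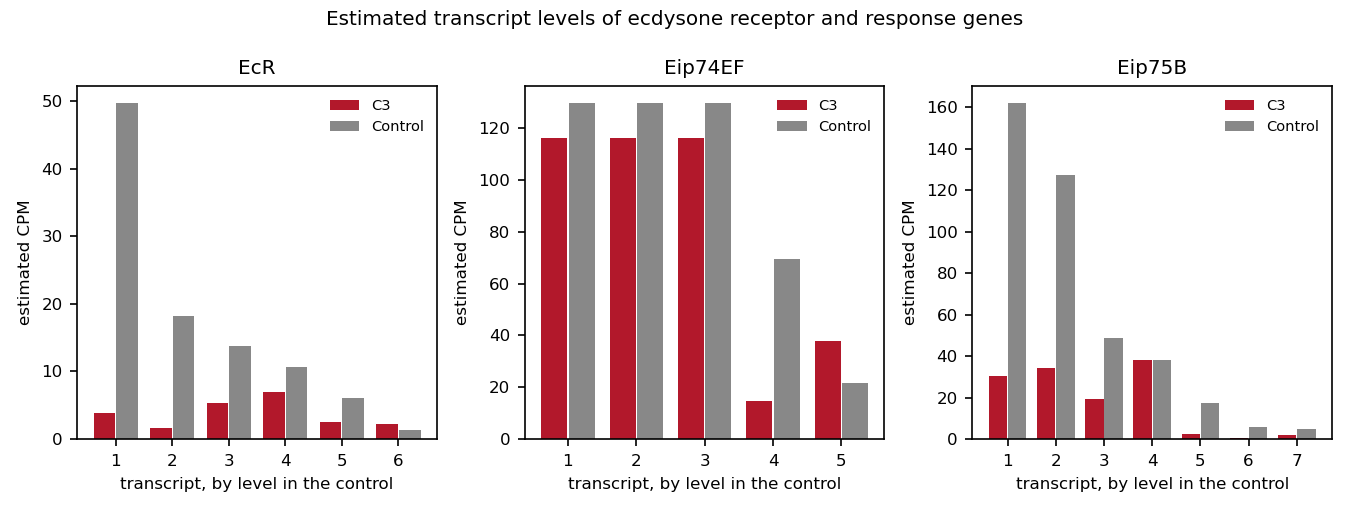
Estimated level in CPM (bars, from 0) of the transcripts of EcR, Eip74EF and Eip75B with a mean of at least 1 CPM, C3 at the left and Control at the right of each pair, ordered by level in the control. In EcR the leading transcript is at 3.91 CPM in C3 and 49.7 CPM in the control, and in Eip75B the fourth pair of bars is at 38.3 CPM in C3 and 38.2 CPM in the control.

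Some immune recognition genes were far higher in C3. Of 13 peptidoglycan recognition protein genes 4 were higher (30.8%) and 1 lower (7.69%), and 3 lay above all other libraries. PGRP-SB2, a secreted member, stood at 2354 CPM in C3, 241 CPM in C1, 0.135 CPM in C2, 7.08 CPM in C5, 967 CPM in C4 and 71.0 CPM in the control. Its level thus varied widely among libraries, with C3 at the top. It lies at 3L:16726541-16727288 beside CG13026 (3L:16724678-16726169), which was at 41.1 CPM in C3, 7.14 CPM in C4 and 0.543 CPM in the control, at most 0.795 CPM elsewhere, and also lay above all other libraries. PGRP-LC, the main membrane receptor of the Imd pathway, was at 151 CPM in C3, 39.2 to 72.6 CPM in C1, C2, C5 and C4, and 41.0 CPM in the control. PGRP-LF, a receptor that dampens the same pathway, was at 37.7 CPM in C3, 3.55 to 8.0 CPM in C1, C2, C5 and C4, and 2.57 CPM in the control (log2 ratio 3.87).

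Further along the Imd and Toll pathways, 5 of 24 genes were higher (20.8%) and none lower. The Imd transcription factor gene Rel was at 423 CPM in C3, 189 to 208 CPM in C1, C2, C5 and C4, and 134 CPM in the control. The inhibitor pirk was at 144 CPM in C3, 25.3 to 54.2 CPM in C1, C2, C5 and C4, and 59.7 CPM in the control. Both lay above all other libraries. The Toll branch genes modSP (121 CPM in C3, 56.5 CPM in the control) and dl (79.8 CPM in C3, 38.4 CPM in the control) fell short of 2-fold with plain CPM and with TMM on somatic genes. SPE was at 8.12 CPM in C3 and 2.78 CPM in the control. The adaptor imd (39.7 CPM in C3, 30.3 CPM in the control) did not pass the rule.

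Antimicrobial peptide genes differed in both directions, with 6 of 15 higher (40.0%) and 5 lower (33.3%). Cecropins and defensin were higher. CecC was at 43.4 CPM in C3, 67.9 CPM in C4 and 1.56 CPM in the control, CecB at 29.1 CPM in C3, 24.1 CPM in C4 and 0.662 CPM in the control, and Def at 5.90 CPM in C3, 7.40 CPM in C4 and 0.130 CPM in the control. C1, C2 and C5 had at most 2.21 CPM of any of these 3, so the high values were those of C3 and C4. These 3 genes were measured largely through C3 and C4. Only 15 of the 20 listed peptide genes were measured, so the share higher may follow in part from the filter. Diptericins and attacins were lower, with DptA at 1.97 CPM in C3, 86.1 CPM in C4 and 20.2 CPM in the control, DptB at 0.303 CPM in C3 and 6.43 CPM in the control, and AttA at 1.74 CPM in C3 and 9.49 CPM in the control. For DptA, DptB and AttA, C3 lay below every other library. Listericin, an antibacterial protein gene outside the list, was at 0.0658 CPM in C3 (5 counts), 7.28 to 25.6 CPM in C1, C2, C5 and C4, and 23.2 CPM in the control.

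Haemocytes, the blood cells of the larva, showed lower RNA for some surface and clotting genes. Hml was at 5.23 CPM in C3, 28.3 to 92.3 CPM in C1, C2, C5 and C4, and 16.7 CPM in the control, NimC1 at 3.99 CPM in C3, 6.02 to 18.9 CPM in C1, C2, C5 and C4, and 17.6 CPM in the control, eater at 6.99 CPM in C3, 14.1 to 40.9 CPM in C1, C2, C5 and C4, and 24.8 CPM in the control, and atilla, a lamellocyte marker, at 0.434 CPM in C3 and 3.04 CPM in the control. These were 4 of 21 genes lower (19.0%), against 1 higher, Sr-CI. Pxn (71.1 CPM in C3, 109 CPM in the control) and the lineage factor srp (120 CPM in C3, 95.9 CPM in the control) stayed within 2-fold, and the list median was 0.20. Serpins, inhibitors of the proteases that trigger Toll and melanisation, were higher for 4 of 15 genes and lower for none, with Spn100A at 522 CPM in C3, 626 CPM in C4 and 52.4 CPM in the control.

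Several stress and tissue remodelling genes were higher in C3. Among 15 genes of the JNK and regeneration response, 6 were higher (40.0%) and 1 lower (6.67%), and the list median was 0.86 on the log2 scale. The stress gene Gadd45 was at 76.7 CPM in C3, 40.5 CPM in C4, 15.1 to 31.4 CPM in C1, C2 and C5, and 15.0 CPM in the control. The matrix metalloproteinase gene Mmp1 was at 952 CPM in C3, 681 CPM in C1, 107 CPM in C2, 447 CPM in C5, 245 CPM in C4 and 321 CPM in the control. C3 was the highest of the 6 for each of these, without reaching 2-fold over the next. The damage signal Ilp8 was at 1.79 CPM in C3, 5.18 CPM in C4 and 0.445 CPM in the control. Mmp2 and the pathway inhibitor puc fell short of 2-fold with plain CPM and with TMM on somatic genes. The gene chinmo, a factor of the juvenile state, was lower at 15.9 CPM in C3 and 51.8 CPM in the control, with 79.6 CPM in C4.

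Of 8 JAK/STAT genes 3 were higher (37.5%) and none lower, and of 19 cell death genes 3 were higher (15.8%) and none lower. The share higher among all somatic genes was 6.88%. Of the 3 JAK/STAT genes, dome fell short of 2-fold with plain CPM and with TMM on somatic genes. The ligand gene upd3 was at 2.34 CPM in C3, at most 1.04 CPM in C1, C2, C5 and C4, and 0.619 CPM in the control, above all other libraries. The initiator caspase gene Dronc was at 280 CPM in C3, 209 CPM in C1 and 93.3 CPM in the control, and the death activator rpr at 30.8 CPM in C3, 31.3 CPM in C4 and 11.9 CPM in the control. The activator hid (31.3 CPM in C3, 22.7 CPM in the control) and the effector caspase Drice (123 CPM in C3, 95.1 CPM in the control) did not pass the rule. Autophagy genes were mostly within 2-fold, with Atg4b at 69.1 CPM in C3 and 31.2 CPM in the control and 17 of 19 neither higher nor lower. The heat shock gene Hsp70Bb was higher, at 428 CPM in C3, 426 CPM in C1, 111 to 143 CPM in C2, C5 and C4, and 5.35 CPM in the control. The control was thus the low library, and reads of the near-identical Hsp70 copies cannot be assigned with certainty. Summed over the Hsp70 copies and Hsp68, the level was 679 CPM in C3 and 224 CPM in the control. In C1, C2, C5 and C4 this sum was 857 to 1308 CPM. Of the 5 measured genes 2 were higher (40%) and 3 neither.

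Digestive genes of the gut differed in both directions. Among 26 Jonah and trypsin protease genes, 7 (26.9%) were higher and 8 (30.8%) lower. All 7 higher ones were Jonah genes, such as Jon44E at 94.6 CPM in C3, 113 CPM in C1 and 3.38 CPM in the control, and the 8 lower ones were 5 trypsin genes and the Jonah genes Jon25Bi, Jon25Bii and Jon66Cii. Jon25Bi was at 12.2 CPM in C3, 35.6 to 165 CPM in C1, C2, C5 and C4, and 45.6 CPM in the control, and epsilonTry at 13.7 CPM in C3, 199 CPM in C2, 16.2 CPM in C4 and 53.6 CPM in the control. epsilonTry, betaTry, CG30025 and deltaTry form a run of adjacent lower genes on 2R. Their sequences are alike, so reads may be shared among them. Of 12 sugar-digesting enzyme genes 3 were higher and 1 lower, the amylase-related gene Amyrel being higher at 19.8 CPM in C3 and 2.86 CPM in the control. Of 5 lysozyme genes 4 were lower, LysS being at 1.32 CPM in C3 and 8.38 CPM in the control, and of 10 alkaline phosphatase genes 5 were lower (50%) and 3 higher (30%). The higher ones were Alp5, Alp6 and Alp8, with Alp5 at 21.8 CPM in C3 and 8.99 CPM in the control. Alp1 was lower, at 7.35 CPM in C3, 80.5 to 310 CPM in C1, C2, C5 and C4, and 110 CPM in the control.

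Fat body and fuel genes differed in single members. The storage protein gene Fbp2 was at 8166 CPM in C3, 9214 CPM in C1, 10765 CPM in C2, 6740 CPM in C5, 3784 CPM in C4 and 2553 CPM in the control. The lipoprotein gene apolpp was at 2408 CPM in C3, 2124 CPM in C1, 3011 CPM in C2, 3517 CPM in C5, 514 CPM in C4 and 628 CPM in the control. For both, C3 lay within the range of C1, C2 and C5, with C4 and the control below. Lsp1gamma, a hexamerin, was at 7184 CPM in C3, 13135 CPM in C1, 20502 CPM in C2, 20928.5 CPM in C5, 4821 CPM in C4 and 17049 CPM in the control. The most abundant of the storage genes did not pass the rule, with Fbp1 at 49899 CPM in C3 and 40615 CPM in the control and Lsp2 at 19797 CPM in C3 and 22197 CPM in the control. Of 8 storage and lipoprotein genes 3 were higher (37.5%) and 1 lower (12.5%).

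Sugar metabolism genes had 4 of 24 higher (16.7%), 3 lower (12.5%) and 17 neither, with a median log2 ratio of -0.16. Among all somatic genes 6.88% were higher and 10.6% lower, so the share lower was close to that of all genes. Pepck1, an enzyme of gluconeogenesis, was at 532 CPM in C3, 122 to 317 CPM in C1, C2, C5 and C4, and 81.5 CPM in the control. Its annotated span and counts equal those of CG45087, so that the 2 cannot be told apart. Glyp, glycogen phosphorylase, was at 54.1 CPM in C3, 193 to 837 CPM in C1, C2, C5 and C4, and 236 CPM in the control. Gpo1, a mitochondrial glycerophosphate oxidase, was at 39.3 CPM in C3, 7.66 to 15.5 CPM in C1, C2, C5 and C4, and 9.38 CPM in the control. C3 was thus the lowest library for Glyp and the highest for Gpo1. Of 10 sugar and amino acid transporter genes, 2 were higher (20%), 2 lower (20%) and 6 neither. Among the higher ones, the amino acid transporter slif was at 258 CPM in C3, 35.6 to 103 CPM in C1, C2, C5 and C4, and 87.8 CPM in the control, again above all others. Among the lower ones was Tret1-2, with a log2 ratio of -3.0.

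Many cytochrome P450 genes were lower in C3, although their summed level differed little, at 1632 CPM in C3 and 1748 CPM in the control. Of 62 cytochrome P450 genes, 26 were lower (41.9%) and 4 higher (6.45%), and 8 lay below all other libraries. Cyp4d1 was at 84.2 CPM in C3, 136 to 235 CPM in C1, C2 and C5, 60.3 CPM in C4 and 238 CPM in the control, and Cyp6a18 at 1.66 CPM in C3, 10.6 to 29.4 CPM in C1, C2, C5 and C4, and 4.68 CPM in the control. Some of the lower ones, such as Cyp305a1 (0.132 CPM in C3, at most 0.265 CPM in C1, C2 and C5, 9.81 CPM in C4 and 3.61 CPM in the control), followed the libraries with testis RNA. The 4 higher genes were Cyp9b2, Cyp6a17, Cyp6a23 and Cyp4d8, with Cyp9b2 at 119 CPM in C3 and 37.5 CPM in the control. Glutathione transferases gave 6 lower (20%) and 2 higher (6.67%) of 30, with a summed level of 2470 CPM in C3 and 1881 CPM in the control. UDP-glycosyltransferases gave 7 lower (33.3%) and 2 higher (9.52%) of 21, with a summed level of 752 CPM in C3 and 781 CPM in the control. In both of these families a gene lay above all other libraries. GstT4 was at 161 CPM in C3, 22.0 to 65.9 CPM in C1, C2, C5 and C4, and 37.6 CPM in the control. Ugt37D1 was at 44.4 CPM in C3, 1.71 to 8.57 CPM in C1, C2, C5 and C4, and 1.99 CPM in the control. Tsf3, a transferrin-family gene, did so too, at 99.7 CPM in C3, 12.4 to 17.4 CPM in C1, C2, C5 and C4, and 8.0 CPM in the control.

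Several large classes had few members or none past the rule. None of 73 mitochondrial ribosomal protein genes, 19 neuron and glia genes, 9 tracheal genes, 11 basement membrane genes or 25 genes of developmental signalling passed the rule in either direction. Of 86 cytosolic ribosomal protein genes 2 were lower, RpS19b (2.29 CPM in C3, 37.5 CPM in C4, 24.4 CPM in the control) and RpS5b (4.27 CPM in C3, 41.8 CPM in C4, 27.4 CPM in the control). Of 41 cell cycle and replication genes 2 were lower, aurA (10.3 CPM in C3, 43.4 CPM in C4, 27.2 CPM in the control) and cid. RpS19b, RpS5b and aurA were low in C1, C2 and C5 as well, and thus high in the 2 libraries with testis RNA. The pan-neuronal gene elav was at 66.5 CPM in C3 and 61.6 CPM in the control, and the tracheal regulator trh at 51.6 CPM in C3 and 36.1 CPM in the control. Of 26 lipid storage and synthesis genes 1 was lower, FASN2 (0.434 CPM in C3, 0.566 to 7.63 CPM in C1, C2, C5 and C4, 2.06 CPM in the control). Among 30 patterning factors of the imaginal discs, 1 passed the rule, bab2, at 176 CPM in C3 and 79.4 CPM in the control.

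The 3 genes with the largest ratios of C3 over the control are given no role here. CG42717 (3L:16032762-16033190) was at 643 CPM in C3, 138 CPM in C4, at most 2.37 CPM in C1, C2 and C5, and had 0 counts in the control, at least 19727-fold higher in C3 against the floor. CG32762 (X:5500208-5501229) was at 932 CPM in C3, 439 CPM in C4 and 0.206 CPM in the control. Its neighbour CG4151 (X:5501476-5502782) was at 1273 CPM in C3, 476 CPM in C4 and 0.402 CPM in the control. In all 3, C4 was the next highest library. CG14062 (3R:28641585-28642891) was at 419 CPM in C3, 24.0 CPM in C1, 0.195 CPM in C2, 0.493 CPM in C5, 16.1 CPM in C4 and 1.74 CPM in the control, and stood farthest above the other libraries of all somatic genes considered for naming. On 3L, CG7924 (3437 CPM in C3, 483 CPM in the control) and its neighbour CG7906 (2543 CPM in C3, 569 CPM in the control) were among the 8 higher genes with the largest difference in CPM, with C4 at 2582 and 1418 CPM.

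On the lower side, CG13460 (3L:15061029-15061705) was at 0.355 CPM in C3, 68.1 to 403 CPM in C1, C2, C5 and C4, and 99.6 CPM in the control. CG14265 (X:3236130-3236686) was at 0.250 CPM in C3, 33.7 to 141 CPM in C1, C2, C5 and C4, and 71.0 CPM in the control. The neighbours CG31698 (2L:3173205-3173840) and CG15404 (2L:3173972-3174504) were at 2.99 and 5.53 CPM in C3, against 157 and 218 CPM in the control. C1, C2, C5 and C4 held between 334 and 617 CPM of CG31698 and CG15404, so that C3 was lowest for all 4 of these genes.

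By chromosome arm, the share of somatic genes higher in C3 lay between 6.49% (3R) and 8.15% (3L) on the large arms, and the share lower between 8.32% (X) and 11.4% (2R and 3R). Among long noncoding RNA genes 39 of 115 were higher (33.9%) and 15 lower (13.0%), beside 637 of 9858 protein-coding genes higher (6.46%) and 1029 lower (10.4%). These shares leave out the genes set aside, of which 1453 of 1457 measured were lower in C3. The setting aside thus raises the share higher and cuts the share lower. Of noncoding RNA genes picked by symbol, 79 were set aside and 109 were measured among the rest. Among 146 antisense RNA genes 35 were lower (24.0%) and 20 higher (13.7%). Whether the counting used strand is not given in the sources used here, and without it reads of an antisense gene and its partner cannot be told apart. The white gene w, the usual marker of UAS vectors, was at 82.3 CPM in C3, 65.7 CPM in C1, 34.4 CPM in C2, 73.2 CPM in C5, 61.6 CPM in C4 and 53.4 CPM in the control, within 2-fold.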

How the data were processed

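RNA was sequenced from whole larvae, 1 library each of C3, C1, C2, C5, C4 and the control. Per the labels' protocols, TRIzol extracts went into a stranded library kit that removes ribosomal RNA. Tools in the submitters' processing notes are TopHat, Partek and bcl2fastq, with dm6 as the build. How strand entered the counting is not given in the sources used here. The deposited tables hold expected counts (estimated reads per RefSeq transcript, shared by the authors among transcripts) for 34966 transcripts, and RPKM values computed by the authors, which were used only to check that each pair of columns came from the same library.

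Transcripts were paired with genes of the Release 6 annotation (33027 matched, 1939 did not), summed per gene and rounded. The unmatched transcripts held 0.105% of the C3 counts and 0.109% of the control counts. Library totals were scaled with TMM factors over all genes (edgeR 4.0.16 in R 4.3.3), 0.998 for C3 and 1.09 for the control. Genes averaging at least 1 CPM in the 6 libraries were kept. Genes were set aside as testis RNA when the control had at least 1 CPM and C1, C2 and C5 each at most 5% of it (1448 measured genes), or when they were Y-linked, on the male germline list, roX1 or roX2 (9 more). A gene differed when the ratio was at least 2-fold and its exact 95% Clopper-Pearson interval (scipy 1.17.1) excluded 1, with a floor of 3 counts. On simulated counts for 10142 genes, 200 of them changed, the rule recovered 100% of absolute log2 changes of 1.5 and of 3 with 2 false calls, which covers counting noise only.

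Genes and the 60 gene lists were chosen with earlier results of these data known. Named by rule, among somatic genes averaging at least 5 CPM over C3 and the control, were the 12 largest ratios and the 8 largest CPM differences in each direction and the 10 genes farthest above and below all other libraries. In each list up to 6 called members per direction and the 3 most abundant in the control were named by rule. Runs of at least 4 neighbours and transcripts of at least 1 CPM of selected hormone genes were also taken. List members named beyond these limits or without passing the 2-fold rule, and w, were picked with their values in view. The settings varied were DESeq2 1.42.0 size factors, plain CPM, TMM on somatic genes, other filters and thresholds, and transcripts in place of genes.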

Additional observations from a re-analysis of the deposited data

How the results depend on the processing

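No paired analysis was possible because each genotype had 1 library, and no replicate could be left out. Other scalings (DESeq2 size factors, plain CPM, TMM on somatic genes) gave 556 to 687 higher and 1092 to 1243 lower genes, and shifted the median log2 ratio by -0.01, -0.13 and -0.11. Calls were followed for 308 genes, being those named by ratio, CPM difference or distance from other libraries, and all called list members. The male and noncoding RNA lists were left out. Of the 308, 2 lost their call with DESeq2 size factors (JhI-21, Yp3), 18 with plain CPM and 15 with TMM on somatic genes. All of these were close to 2-fold, and none of the 308 changed direction. Without a filter on low counts 1049 genes were higher, 2129 lower and 169 above all other libraries, and with a mean of at least 5 CPM 683 were lower, since the filter changes how many genes are tested. With no gene set aside 2533 of 11599 (21.8%) were lower, and setting aside genes at up to 20% of the control left 867 lower. At 4-fold, 176 were higher, 535 lower, 20 above and 143 below all other libraries. Transcripts as deposited gave 2744 higher and 3194 lower of 21370. Against C1, C2 and C5 alone, a setting chosen after seeing the data, C3 lay above in 201 genes and below in 612. List medians moved by no more than the typical counting interval of a member in 339 recomputations and by more in 117, and none of at least 1 in size changed sign. Low genes are limited by depth: the C3 level of 27 somatic genes and the control level of 13 lay at or below the floor of 3 counts.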
